A study of Mus musculus with 2 samples.

Results

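The genes described here are antisense RNA genes of mouse hematopoietic stem cells (HSC), each set beside the gene on the opposite DNA strand that it overlaps. They are the genes of the class antisense in the GENCODE M21 mouse annotation with a level of at least 1 TPM in both HSC libraries, leaving out Kcnq1ot1 and Airn by name. TPM is the share of a gene among all transcripts of a library, corrected for length and scaled to a fixed total. This rule gave 46 genes of 2062 antisense genes in the tables, and 46 of 42462 genes of any class that could be matched to the annotation. Kcnq1ot1 would have passed, at 2.20 TPM in replicate 1 and 2.09 TPM in replicate 2, and Airn would not have, at 0.30 and 0.16 TPM. Over all 2062 antisense genes 2.28% reached 1 TPM in both libraries, against 3.1% of lincRNA genes, 9.92% of processed transcript genes, 44% of protein-coding genes and 24% of all genes. The members were chosen by their TPM in the libraries described here, so their levels are given as a description, with no test.

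The libraries were total RNA sequenced after removal of ribosomal RNA, from 100 ng of RNA each, with a ScriptSeq kit. The cells were HSC of adult male C57BL/6J mice aged 5 to 6 weeks, with 2 biological replicates and no second group. The replicates were separate biosamples with the same donor entry, and the sources used here give neither the sort gate nor whether the animals differed. With 1 group of 2 libraries no difference could be tested, since an exact sign-flip permutation over 2 values cannot give a p below 0.5. Comparisons therefore rest on the TPM of each library and on the interval deposited with each TPM, which covers the counting and assignment error of that library and not the spread between animals.

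Antisense genes are transcribed from the strand opposite to another gene, over all or part of its length. Some start close to the start of a coding gene and run away from it, as products of a promoter region that is used in both directions, while others run through the body or the far end of the gene they face. A few antisense RNAs act on chromatin or on the processing of the RNA they overlap, some serve mainly as precursors of small RNAs held in their introns or exons, and for most no function is known.

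The promoter windows below are shown because each holds the annotated start of a member together with the start of the coding gene on the other strand. They are RefSeq windows on GRCm38.p6 that run from 250 bases before the start of the named gene to 50 bases after it, written 5′ to 3′ on the strand of that gene. Capitals run from the annotated start of one gene to that of the other. The windows lie at chr11:86201144-86201443 on the minus strand for Brip1, chr11:64079234-64079533 on the plus strand for 2810001G20Rik, chr6:86526140-86526439 on the minus strand for Pcbp1, chr11:82780993-82781292 on the minus strand for Gm11423, and chr9:95511947-95512246 on the minus strand for U2surp. The starts are 177 bases apart for Brip1os and Brip1, 16 for 2810001G20Rik and Cox10, 74 for 1600020E01Rik and Pcbp1, 66 for Gm11423 and Lig3, and 155 for Gm28424 and U2surp. Between the most abundant transcripts the starts of Gm11423 and Lig3 were 14643 bases apart, and those of the other 4 pairs were within 1000 bases.
Brip1, with the start of Brip1os: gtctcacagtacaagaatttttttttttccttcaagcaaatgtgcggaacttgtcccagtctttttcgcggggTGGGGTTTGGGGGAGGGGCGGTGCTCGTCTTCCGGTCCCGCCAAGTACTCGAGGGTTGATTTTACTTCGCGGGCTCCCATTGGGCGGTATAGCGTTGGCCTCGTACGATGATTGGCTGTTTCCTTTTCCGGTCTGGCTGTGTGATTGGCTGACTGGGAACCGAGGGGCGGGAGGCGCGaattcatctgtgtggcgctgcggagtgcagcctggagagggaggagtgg
2810001G20Rik, with the start of Cox10: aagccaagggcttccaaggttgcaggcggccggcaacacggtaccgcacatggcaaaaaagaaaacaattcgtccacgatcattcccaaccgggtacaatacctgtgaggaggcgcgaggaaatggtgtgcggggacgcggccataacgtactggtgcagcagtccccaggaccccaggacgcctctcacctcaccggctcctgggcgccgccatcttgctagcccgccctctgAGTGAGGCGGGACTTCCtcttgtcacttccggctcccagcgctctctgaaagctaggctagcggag
Pcbp1, with the start of 1600020E01Rik: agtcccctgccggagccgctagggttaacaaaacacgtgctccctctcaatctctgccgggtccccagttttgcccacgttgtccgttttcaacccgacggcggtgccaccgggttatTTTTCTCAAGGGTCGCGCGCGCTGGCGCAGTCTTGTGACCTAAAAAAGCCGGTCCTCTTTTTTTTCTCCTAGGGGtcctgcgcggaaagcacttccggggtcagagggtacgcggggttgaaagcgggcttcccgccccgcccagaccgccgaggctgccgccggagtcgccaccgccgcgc
Gm11423, with the start of Lig3: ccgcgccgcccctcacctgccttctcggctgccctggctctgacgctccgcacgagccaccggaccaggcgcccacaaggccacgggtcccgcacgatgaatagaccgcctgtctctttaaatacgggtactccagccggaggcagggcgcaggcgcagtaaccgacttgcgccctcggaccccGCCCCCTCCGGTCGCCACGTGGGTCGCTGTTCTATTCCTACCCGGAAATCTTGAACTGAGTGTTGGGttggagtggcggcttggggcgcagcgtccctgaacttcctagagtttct
U2surp, with the start of Gm28424: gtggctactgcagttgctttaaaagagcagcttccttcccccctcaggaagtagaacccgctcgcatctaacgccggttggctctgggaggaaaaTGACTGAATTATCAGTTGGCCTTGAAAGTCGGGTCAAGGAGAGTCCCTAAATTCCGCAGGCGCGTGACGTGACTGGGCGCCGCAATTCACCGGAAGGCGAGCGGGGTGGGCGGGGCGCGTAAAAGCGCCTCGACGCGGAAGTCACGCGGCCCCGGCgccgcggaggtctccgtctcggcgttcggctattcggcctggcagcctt

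A member of another kind is F630028O10Rik, whose gene record on the X chromosome encloses the microRNA gene Mir223 on the same strand. The mature sequences are shown because they are the best known product of this locus, with the seed, bases 2 to 8, in capitals. miR-223 is a microRNA of the myeloid lineage, abundant in neutrophils.
mmu-miR-223-5p: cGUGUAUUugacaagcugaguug
mmu-miR-223-3p: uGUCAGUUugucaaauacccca

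Replicate 1 held 27901074 expected counts and replicate 2 held 48490188. The 46 members held 0.0907% of the counts of replicate 1 and 0.0878% of those of replicate 2, with a median of 247 expected counts per member in replicate 1 and 391 in replicate 2. Small and structural RNA genes held 81.4% of all TPM in replicate 1 and 76.7% in replicate 2, so 1 TPM was a stricter floor than in a table without them. Of 15 genes that mark stem and progenitor cells, 13 reached 1 TPM in both libraries, and the B cell and stromal lists had 0 of 6 and 0 of 5 genes there, while the T cell list had 2 of 6. All 10 neutrophil and granulocyte genes reached it, with a summed level of 3155 TPM in replicate 1 and 1188 TPM in replicate 2, as did 6 of 9 erythroid genes, with 117 and 236 TPM. How far these cell types take part in the levels below was not tested.

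Most members were expressed at a few TPM. The median of the member means was 2.67 TPM, with a range of 1.16 to 20.0 TPM, and 14 members averaged under 2 TPM, 23 averaged 2 to 5 TPM, 6 averaged 5 to 10 TPM and 3 were above 10 TPM. Protein-coding genes that reached 1 TPM in both libraries had a median of 6.58 TPM.

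Tug1, a long noncoding RNA found in many tissues, was the highest member, with 18.79 TPM in replicate 1 and 21.21 TPM in replicate 2 (20.0 ± 1.71, SD, n = 2). Its gene record lies at chr11:3639785-3649673 on the minus strand, and 5 transcripts are annotated. A transcript of 4720 nucleotides and 4 exons made up 46.03% of the Tug1 level in replicate 1 and 52.7% in replicate 2 by the deposited isoform percent. A transcript of 1 exon and 1612 nucleotides made up 24.7% and 18.4%, and one of 3 exons and 5112 nucleotides with 21.2% and 21.8%. The level of Tug1 was thus spread over models of 1 and of several exons, with the same leading transcript in both libraries.

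F630028O10Rik, the Mir223 host locus, was next, with 14.97 TPM in replicate 1 and 9.40 TPM in replicate 2. The difference of 1.59-fold lay outside the deposited intervals, which ran from 14.2 to 15.2 TPM in replicate 1 and from 9.01 to 9.64 TPM in replicate 2. It came with the higher summed neutrophil and granulocyte level in replicate 1, whose part in it was not tested. In such bulk samples fewer cells of a type and less RNA per cell cannot be told apart. Its 3-exon transcript of 2771 nucleotides had 7.65 TPM in replicate 1 and 2.92 TPM in replicate 2, while the 2-exon transcript of 3255 nucleotides had 7.32 and 6.48 TPM. The row of Mir223 itself held 0 counts in both libraries, at effective lengths of 2.05 and 0 nucleotides, so it gives no measure of the microRNA. F630028O10Rik overlaps no gene on the other strand in the annotation used.

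Gm13012, an uncharacterised gene inside Ece1, had 13.11 TPM in replicate 1 and 9.57 TPM in replicate 2. All of its level fell on a 3-exon transcript of 849 nucleotides, from 744 and 751 expected counts. Snhg9, a short host gene of the small nucleolar RNA Snora78, stood at 14.43 and 5.27 TPM. These values rest on 32 and 7 expected counts and on effective lengths of 25.7 and 10.2 nucleotides, and the deposited intervals, 9.91 to 19.7 TPM and 2.28 to 10.2 TPM, overlapped. Snhg9 was the only member under 10 expected counts in a library.

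Between 5 and 10 TPM on average stood, besides Snhg9, Rab26os, B930036N10Rik, Gm12454, Brip1os and Gm16140. Brip1os, which runs 103074 bases along chromosome 11, had 6.03 TPM in replicate 1 and 5.77 TPM in replicate 2 and was nearly even between them. Its 2-exon transcript of 4423 nucleotides held 95.5% and 93.9% of its level. Gm16140, inside the gene of the stem cell transcription factor Meis1, had 5.29 and 5.98 TPM, divided almost evenly between transcripts of 1060 and 728 nucleotides, with isoform percents of 47.7 and 52.3 in replicate 1. Both genes gave similar values in the 2 libraries.

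Among the members at 3 to 5 TPM, Gt(ROSA)26Sor, the noncoding RNA of the Rosa26 locus that is widely used for transgene insertion in mice, had 3.57 and 3.56 TPM. Trmt61b had 3.78 and 3.47 TPM. Its record has the class antisense although its symbol is that of a mitochondrial tRNA methyltransferase gene. 2810001G20Rik had 4.00 and 4.39 TPM and E130307A14Rik, for which 13 transcripts are listed, had 4.52 and 3.71 TPM. For these 4 genes the deposited intervals of the 2 libraries overlapped.

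The members just inside the threshold, by the lower of the libraries, were Gm12764 with 1.01 and 2.35 TPM, 4930481A15Rik with 5.22 and 1.05 TPM, and Gm28424 with 1.12 and 1.2 TPM. Just outside were A730011C13Rik with 0.99 and 1.13 TPM, Gm16094 with 0.98 and 3.79 TPM, and B230369F24Rik with 0.94 and 2.24 TPM. Replicate 1 alone put 65 antisense genes at 1 TPM and replicate 2 alone put 81 there.

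**Figure D1:**
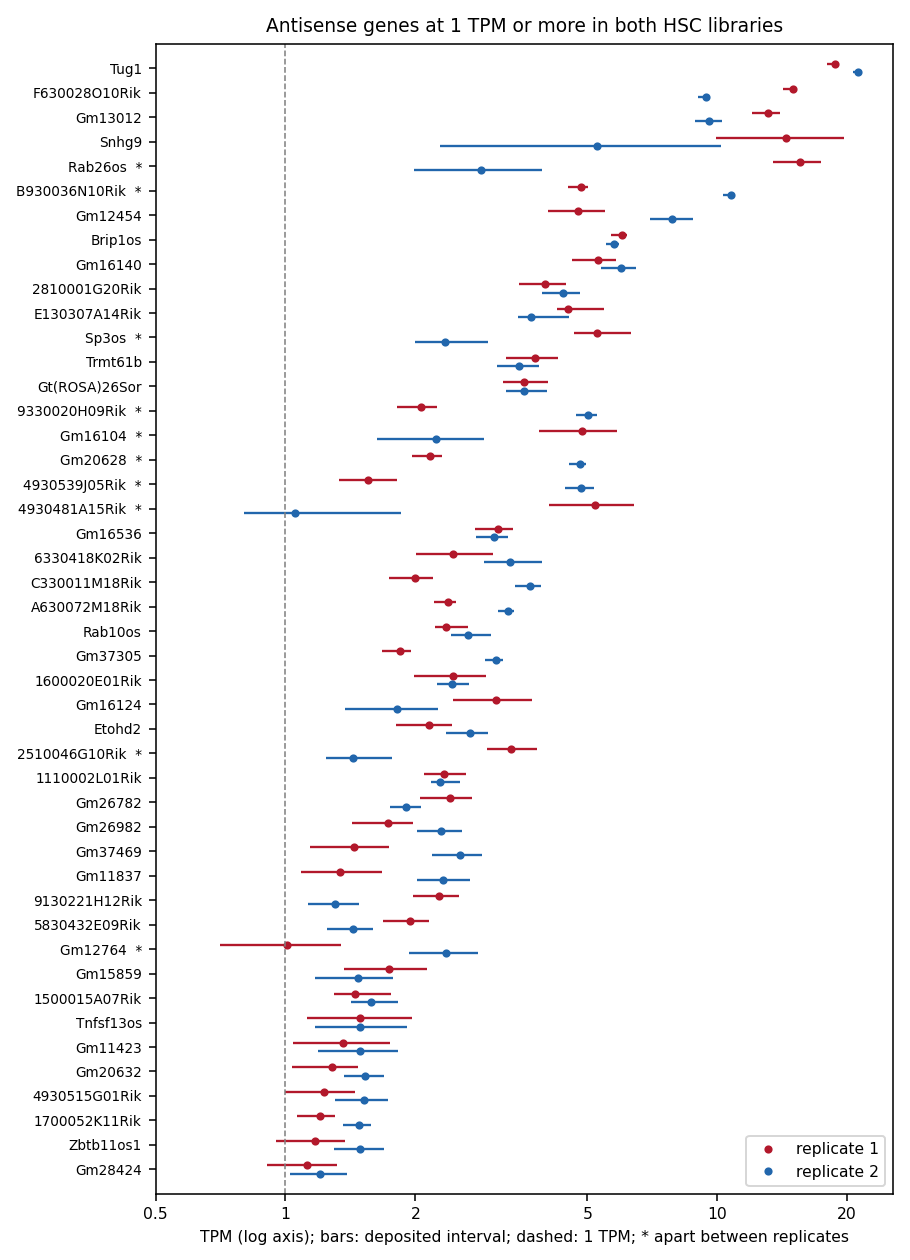
TPM of each of the 46 antisense genes on a log axis, with replicate 1 drawn above replicate 2 and horizontal bars for the deposited interval. The members run from 20.0 TPM on average for Tug1 to 1.16 TPM for Gm28424, and the 10 members with an asterisk differ over 2-fold between the libraries with intervals that do not overlap.

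The most abundant transcript had 1 exon in 15 of the 46 members, which is 32.6%, against 61 of the 514 other antisense genes that had a transcript above 0 TPM, which is 11.9%. By the annotation alone, every listed transcript had 1 exon in 13 of 46 members and in 85 of 2014 other antisense genes, which is 28.3% against 4.22%. The exonic length was also greater, with a median of 1628 nucleotides for the members and 930 for the other antisense genes, while the median gene span was 3710 bases against 5963. Members with 1 exon had a median of 2.01 TPM and those with more exons 3.14 TPM. The libraries held total RNA, which includes unspliced RNA, and the share of such RNA in the 1-exon members was not tested. Reads of unspliced RNA on the same strand could also be counted for 4930515G01Rik, which overlaps the coding gene Git2 on the same strand, and for Gm15859, which overlaps Hmox2 in the same way.

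Levels were also read for antisense genes that lie over exons of an abundant gene on the opposite strand. In 23 antisense genes at least 50% of the exonic bases lay over exons of an opposite gene of at least 20 TPM. Of these, 9 had 0 counts in both libraries, 20 stood below 1% of the TPM of the gene they face, and the median was 0.0883%. Gm16140 was the only member among them, at 11.9% of the level of Meis1. Whether the authors counted by strand is not stated in the sources used here and was not tested. These low shares cannot decide it, since expected counts can assign shared reads to the abundant gene under either setting.

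The members were set against the genes they overlap. A gene on the other strand overlapped 41 of the 46 members, and in each case at least 1 such gene was protein-coding. The partner was the protein-coding gene with the largest overlap. Genes of other classes overlapped more bases for Zbtb11os1, Gm20628 and 4930481A15Rik, namely Gm28037, Gm42743 and Gm6293. The other 5 members, F630028O10Rik, 2810001G20Rik, Gm15859, Gm11423 and Gm28424, overlapped no gene on the other strand in GENCODE M21. By the gene records, the 5′ ends overlapped in 15 pairs and the antisense gene lay inside the sense gene in 12. The 3′ ends overlapped in 11, and in 3 the sense gene lay inside the antisense gene. The most abundant transcripts did not always keep these kinds of overlap. Overlapping 5′ ends made up 36.6% of the member pairs and 23.0% of the 1839 pairs of other antisense genes, and antisense genes inside their sense gene made up 29.3% and 57.2%. Exons of the partner covered a median of 11.9% of the exonic bases of the members, from 0% to 95.1% for A630072M18Rik over Rsbn1l.

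The starts of the members often lay near a coding start on the other strand, whether or not the genes overlapped. The annotated 5′ end was within 1000 bases of an opposite-strand coding 5′ end in 24 of 46 members, which is 52.2%, against 445 of 2014 other antisense genes, which is 22.1%, and a background of 22.8% over all antisense genes. The median distance was 684 bases for the members and 14200 for the other antisense genes. Within 100 bases lay 7 members, 15.2%, and 84 other antisense genes, 4.17%. With the starts of the most abundant transcripts in place of the gene records, 18 of 45 members were within 1000 bases, so fewer starts lay near a coding start by that measure. Among the 41 pairs of a member and its overlapping partner alone, 11 had 5′ ends within 1000 bases. The background was 12.2% of 1880 pairs of all antisense genes, members included.

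By the gene records, 11 of the 24 had divergent starts without overlap, with the transcripts running apart. The other 13 started past the coding start. The first bases of the genes overlapped in these, except for Gm20628, which starts beyond the far end of the histone gene Hist2h2bb and encloses it. The closest divergent pairs were 6330418K02Rik with BC037034 at 10 bases, 2810001G20Rik with Cox10 at 16, Gt(ROSA)26Sor with the SET domain gene Setd5 at 32, and Tnfsf13os with the SUMO protease gene Senp3 at 54. Of these 4, the most abundant transcripts of 2810001G20Rik and Cox10 started 18 bases apart and those of 6330418K02Rik and BC037034 started 714 bases apart, while the other pairs lay further apart than 1000 bases. The start of Setd5 is that of GENCODE M21, and the RefSeq window of Setd5 lies further on, at chr6:113104685-113104984. The closest overlapping starts were those of 1600020E01Rik and Pcbp1, a poly(rC)-binding protein gene, at 74 bases.

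**Figure D2:**
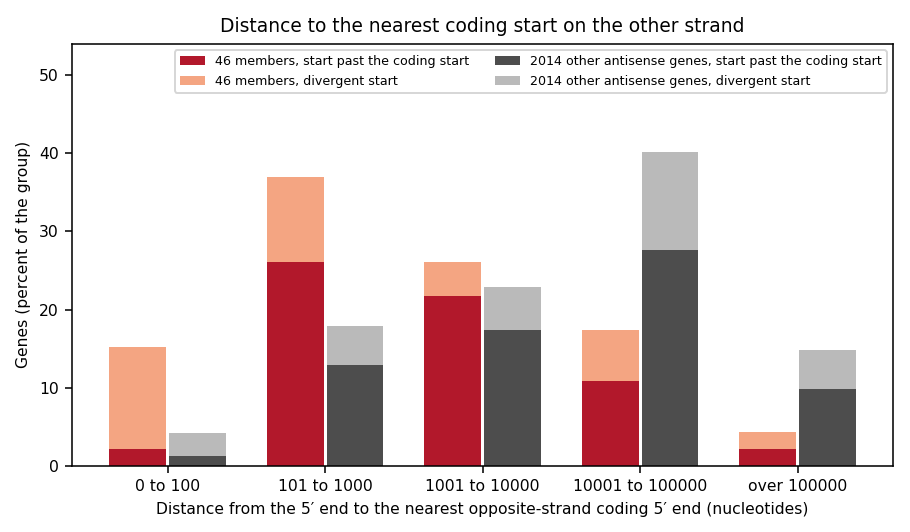
Share of the 46 members (left bars) and of 2014 other antisense genes (right bars) by distance from the annotated 5′ end to the nearest coding 5′ end on the other strand, with starts past the coding start in the dark part and divergent starts in the light part. The members lie mostly in the classes up to 1000 bases, with 15.2% and 37.0%, and the tallest bar of the other antisense genes is in the next to last class, with 40.2%.

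The coding genes whose record starts within 1000 bases of that of a member were nearly all expressed. Of 23 with a value, 21 reached 1 TPM in both libraries, with a median of 9.26 TPM, against 238 of 438 coding genes that start near another antisense gene, with a median of 1.88 TPM. The rule did not use the levels of these coding genes. The strand setting is not given, and whether reads of the coding genes added to the levels of members was not tested. The highest were Ccnl1, a cyclin gene linked to splicing, opposite Gm37305 with 115.91 and 90.49 TPM, and the ubiquitin-conjugating enzyme gene Ube2d3 opposite 4930539J05Rik with 64.66 and 117.09 TPM. The lowest was Rfx1 opposite C330011M18Rik, with 0.25 and 0.90 TPM.

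Divergent members stood on either side of the level of the coding gene they start beside. Brip1os had 6.03 and 5.77 TPM, against 3.38 and 4.89 TPM for Brip1, a helicase gene of the Brca1 pathway. 2810001G20Rik had 4.00 and 4.39 TPM, against 1.07 and 2.67 TPM for Cox10, which encodes an enzyme of heme A synthesis. In both pairs the antisense gene was the higher one in each library.
Gm11423 had 1.36 and 1.49 TPM, against 8.82 and 9.69 TPM for the DNA ligase gene Lig3. Gm28424 had 1.12 and 1.2 TPM, against 24.90 and 36.43 TPM for the splicing factor gene U2surp. Here the coding gene was the higher one. Over the 23 members with a value for the near coding gene, 14 lay below it and 6 above it by the interval rule used for the pairs further on.

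The promoter windows of members were rich in CpG dinucleotides. RefSeq windows matched 25 members and 18 of the coding genes near which members start, with 1 window counted per gene, and the windows of both sets had a median of 26 CpG dinucleotides, against 7 over all 27025 windows of the same length. The letters GGGCGG, the GC box bound by Sp family factors, were present on either strand in 60% of the member windows, 72.2% of the coding windows and 35.9% of all windows. The letters CCGGAAG, a form of the motif of ETS family factors, were present in 20%, 50% and 9.12%. CCAAT, the box bound by NF-Y, was present in 52%, 50% and 37.9% and TATAAA, the TATA box, in 12%, 5.56% and 14.2%. Matches of different motifs can share bases, as those of GGGCGG and CCGGAAG do in the window of Gm26782. A match describes the sequence only. Windows of members and of coding genes overlap in places, as for 2810001G20Rik and Cox10, so the sets are not independent. Some member windows do not hold the annotated start of the member, as for Tug1 and Etohd2. In the windows printed above GGGCGG was found in each, and CCGGAAG in the windows of Brip1, 2810001G20Rik, Pcbp1 and U2surp.

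Levels of antisense and sense genes were then compared per length, in TPM. Of the 41 partners 39 had a value: Gm49354, opposite Etohd2, was not analysed here, and Gm11084, opposite Sp3os, had an effective length of 0, for which no TPM can be given. The antisense gene lay below its sense gene in 21 of 39 pairs and above it in 15, where order asked for separate intervals and the same direction in replicate 1 and replicate 2, and 3 pairs were not ordered. Over all 512 antisense genes above 0 TPM with a measured partner, 79.7% lay below and 6.64% above. The members were chosen for a level of at least 1 TPM, which bears on this balance, so nothing is read from the difference. The median log2 ratio of antisense over sense, with 0.1 TPM added to each, was -1.63, at -1.62 in replicate 1 alone and -2.29 in replicate 2 alone, and the range over pairs was -6.59 to 5.25.

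Over the 39 pairs Spearman's rho between the mean TPM of antisense and sense genes was -0.09 and Pearson's r on log2 values was -0.06, as a description of pairs that share libraries and of antisense levels cut at 1 TPM. The sense genes were more often expressed than those of other antisense genes: 27 of 39, or 69.2%, reached 1 TPM in both libraries, against 816 of 1821, or 44.8%, and their median was 8.89 TPM against 0.76 TPM. By level of the sense gene, members were 4 of 674 antisense genes whose sense gene was below 0.1 TPM, 6 of 291 at 0.1 to 1 TPM, 10 of 608 at 1 to 10 TPM and 19 of 287 at 10 TPM or more. The share of members was thus 0.594%, 2.062%, 1.645% and 6.62% from the lowest class to the highest, with no steady rise over the middle classes.

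**Figure D3:**
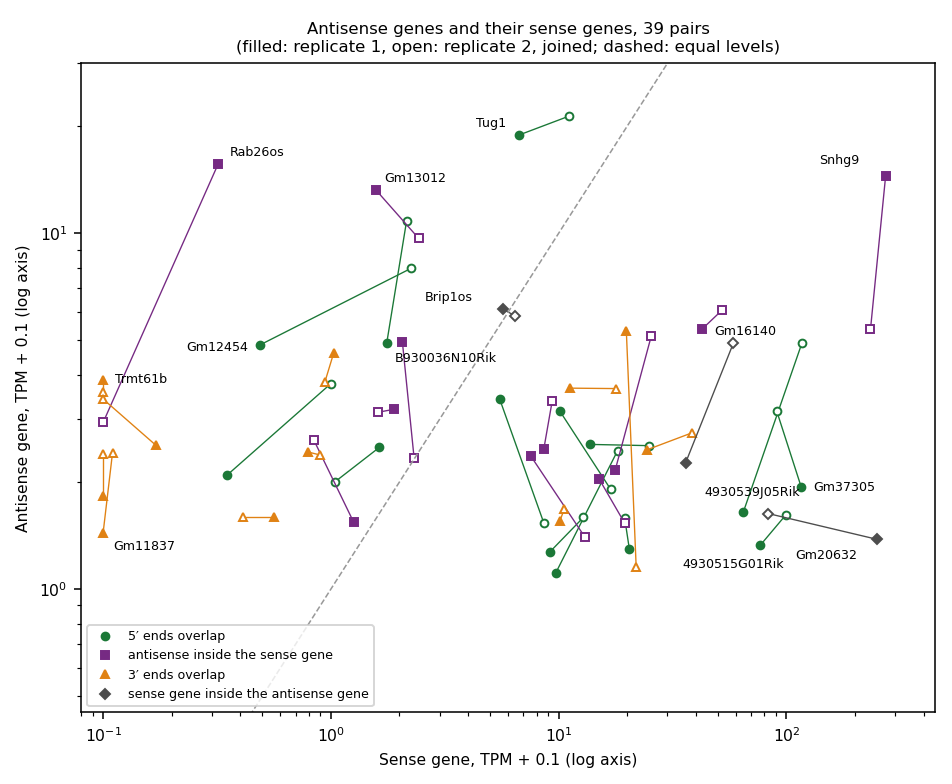
TPM of the antisense gene against TPM of its sense gene for 39 pairs, both with 0.1 added and on log axes, with replicate 1 filled, replicate 2 open and the 2 joined, and with the kind of overlap shown by shape and colour. Pairs right of the dashed line of equal levels have the sense gene higher, among them Snhg9, Gm20632 and Gm37305, and those left of it have the antisense gene higher, among them Tug1, Gm13012 and Rab26os.

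The 21 pairs with the lower antisense gene all had a sense gene at 1 TPM or more in both libraries. Among pairs with overlapping 5′ ends, 9 of 14 were of this kind. 4930515G01Rik had 1.23 and 1.52 TPM, against 76.82 and 99.62 TPM for Ankrd13a, 64.2-fold more. Gm37305 had 1.84 and 3.07 TPM, against the levels of Ccnl1 given above, 42.0-fold more. 4930539J05Rik had 1.55 and 4.83 TPM, 28.5-fold below Ube2d3. The records of these antisense genes start inside some of the most abundant coding genes of the list. Between the most abundant transcripts the starts did not overlap. They lay 11062 bases apart for 4930515G01Rik and Ankrd13a, 5890 for Gm37305 and Ccnl1, and 475 for 4930539J05Rik and Ube2d3.

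Further pairs with overlapping 5′ ends were less uneven. 1700052K11Rik had 1.2 and 1.48 TPM, against 20.32 and 19.40 TPM for the kinase gene Tlk2. Gm12764 had 1.01 and 2.35 TPM, against 9.61 and 18.05 TPM for Lsm14a, an RNA-binding protein gene. Zbtb11os1 had 1.17 and 1.49 TPM, against 9.03 and 12.74 TPM for the zinc finger gene Zbtb11. In each of these the sense gene was 8.18-fold to 14.8-fold higher.
1600020E01Rik had 2.45 and 2.43 TPM, against 13.69 and 24.86 TPM for Pcbp1. Gm16124 had 3.07 and 1.81 TPM, against 10 and 16.79 TPM for the ubiquitin ligase scaffold gene Cul5. 2510046G10Rik had 3.33 and 1.43 TPM, against 5.40 and 8.52 TPM for Sgf29, a subunit of the SAGA complex. The last pair was the least uneven of the 21, with the sense gene 2.92-fold higher. Between the most abundant transcripts the starts did not overlap for 2510046G10Rik and Sgf29, 21983 bases apart. The same held for 1700052K11Rik and Tlk2, 484 bases apart.

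Of 11 measured members inside their sense gene, 6 lay below it. Gm16140, at chr11:19009128-19011183 on the plus strand, was the only member whose sense gene was on the list of stem cell transcription factors, of which 14 of 32 have an antisense gene in the tables. Its 5.29 and 5.98 TPM stood against 42.68 and 52.07 TPM for Meis1, so the sense gene was 8.41-fold higher, with a log2 ratio of -3.05 ± 0.08 (SD, n = 2). The intervals of the antisense and sense genes were far apart in both libraries, and 79.9% of the exonic bases of Gm16140 lay over Meis1 exons. No member faced a gene of the lists of chromatin regulators, cell cycle and repair genes, or receptors, of which 4 of 32, 2 of 27 and 2 of 22 have an antisense gene.

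9330020H09Rik had 2.06 and 5.03 TPM, against 17.61 and 25.38 TPM for Ccnt1, which encodes cyclin T1 of the elongation factor P-TEFb. 5830432E09Rik had 1.94 and 1.43 TPM, against 14.95 and 19.42 TPM for the phosphatase gene Ptpre. 9130221H12Rik stood 5.71-fold below the kinase gene Gsk3a, which had 7.43 and 12.94 TPM. A630072M18Rik had 2.38 and 3.28 TPM, against 8.51 and 9.27 TPM for Rsbn1l. The last lies almost wholly over Rsbn1l exons, and the part of Rsbn1l reads in its level was not tested.
The record of Snhg9 lies inside that of the ribosomal protein gene Rps2, which had 272.66 and 233.82 TPM, 25.7-fold more on average. Between the most abundant transcripts their starts were divergent and 98 bases apart.

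In 4 of 11 pairs with overlapping 3′ ends the antisense gene was the lower one. Rab10os had 2.36 and 2.65 TPM, against 24.21 and 38.47 TPM for Rab10, a small GTPase of membrane traffic. Gt(ROSA)26Sor had 3.57 and 3.56 TPM, against 11.17 and 17.76 TPM for Thumpd3. 1500015A07Rik had 1.45 and 1.58 TPM, against 10.01 and 10.49 TPM for Afap1l1. The members of those 3 pairs differed little between the libraries, and their sense genes were 4.06-fold to 12.5-fold higher. 4930481A15Rik, with 5.22 and 1.05 TPM, faced Drap1, a transcriptional corepressor gene with 19.72 and 21.80 TPM.

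Of the 3 members that enclose their sense gene, 2 enclose replication-dependent histone genes. Gm20632 had 1.28 and 1.53 TPM, against 249.61 and 83.24 TPM for the histone gene Hist2h2aa2, the most uneven of all pairs. Gm20628 had 2.16 and 4.81 TPM, against 35.95 and 58.39 TPM for Hist2h3b. Histone genes have near-identical copies, so the division of reads among them is uncertain. Brip1os was level with Ints2, a subunit gene of the Integrator complex, at 5.57 and 6.30 TPM, and was not ordered. It also overlaps the Mediator gene Med13, which had 11.46 and 14.94 TPM.

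The 15 members above their sense gene fell into pairs with a silent or nearly silent sense gene and pairs with a sense gene that was also expressed. The sense gene was below 1 TPM in at least 1 library in 11 of the 15. Trmt61b stood opposite Spdya, a regulator gene of cyclin-dependent kinase 2 known from germ cells, which had 0 counts in both libraries. Against the level that 3 counts per library would give, Trmt61b was at least 160-fold higher. Gm26982, with 1.73 and 2.29 TPM, overlaps the end of the ghrelin gene Ghrl by 3 bases, and Ghrl had 0 counts in both libraries, so that Gm26982 was at least 21.7-fold higher.
Gm11837 had 1.34 and 2.32 TPM, against 0 and 0.01 TPM for Necab1, from 0 and 4 counts. 6330418K02Rik had 2.44 and 3.32 TPM, against 0.07 and 0 TPM for the sulfotransferase gene Gal3st4. Rab26os had 15.56 and 2.84 TPM, against 0.22 and 0 TPM for the small GTPase gene Rab26. The coding genes in these pairs were at or close to the lowest level that could be measured.

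E130307A14Rik, with 4.52 and 3.71 TPM, stood above Traf3ip2, an adaptor gene of interleukin-17 signalling with 0.93 and 0.84 TPM, and starts 111 bases from Rev3l, a DNA polymerase gene with 4.31 and 5.57 TPM. 1110002L01Rik, with 2.33 and 2.28 TPM, stood above the kinesin gene Kif3c with 0.69 and 0.80 TPM. It also overlaps the chromatin gene Asxl2 by 155 bases, with the starts 154 bases apart. Asxl2 was higher than 1110002L01Rik, with 7.84 and 8.65 TPM. Tnfsf13os had 1.49 TPM in both libraries, against 0.46 and 0.31 TPM for Tnfsfm13. It also overlaps Tnfsf12, with 0.23 and 0.67 TPM, and Tnfsf13, which was higher than Tnfsf13os with 2.25 and 3.27 TPM. The record of Tnfsf13os starts beside Senp3 with 16.03 and 21.45 TPM. These start distances are those of the gene records. Between the most abundant transcripts of the paired genes the starts were 86709 bases apart for E130307A14Rik and Rev3l and 2655 bases for Tnfsf13os and Senp3, while those of 1110002L01Rik and Asxl2 kept the distance of the gene records.

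C330011M18Rik had 1.99 and 3.68 TPM and stood above Rfx1. Gm12454 had 4.76 and 7.87 TPM, against 0.39 and 2.15 TPM for Car9, a carbonic anhydrase gene induced by low oxygen. Gm26782 had 2.40 and 1.90 TPM, against 1.53 and 0.94 TPM for Tep1, a telomerase-associated protein gene. In all 3 the 5′ ends of antisense and sense gene overlap.

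In 4 pairs the antisense gene was higher although the sense gene reached 1 TPM in both libraries. Tug1 was 2.28-fold above Morc2a, a chromatin ATPase gene with 6.61 and 10.95 TPM, whose start the Tug1 record overlaps by 483 bases. Between the most abundant transcripts these starts did not overlap and lay 379 bases apart. B930036N10Rik had 4.83 and 10.74 TPM, against 1.66 and 2.05 TPM for Alyref2, a gene of the mRNA export family. Gm13012 was 5.95-fold above Ece1, the endothelin-converting enzyme gene, with 1.48 and 2.33 TPM. Gm16536 had 3.10 and 3.04 TPM, against 1.79 and 1.51 TPM for the beta-secretase gene Bace1. By the deposited posterior mean Ece1 averaged 2.80 TPM, so its level depends on the estimate used.

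Sp3os overlaps 1023 bases of Sp3, the gene of a GC box binding factor, besides Gm11084. Sp3os had 5.27 TPM in replicate 1 and 2.34 TPM in replicate 2, against 25.89 and 34.31 TPM for Sp3. The antisense gene was therefore the lower one when set against Sp3. Gm37469, inside the T cell receptor zeta chain gene Cd247, had 1.44 and 2.53 TPM, against 1.16 and 0.74 TPM, and Gm16104, inside Nfic, had 4.85 and 2.23 TPM, against 1.96 and 2.22 TPM. Both of these were not ordered, since the intervals overlapped in 1 library.

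By kind of overlap, the median log2 ratio was 1.73 for the 11 pairs with overlapping 3′ ends, -2.64 for the 14 with overlapping 5′ ends and -1.63 for the 11 with the antisense gene inside. The sense genes differed in level as well, with medians of 0.745, 12.1 and 8.89 TPM. No test was made between these kinds.

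The libraries were compared member by member. A member was called apart when its mean was at least 1 TPM, its values differed over 2-fold and the deposited intervals did not overlap. This held for 10 of 46 members, or 21.7%, with 5 higher in replicate 1, where the background was 4.41%, and 5 higher in replicate 2, where it was 7.87%. In either direction the background was 12.3% over 10958 genes of at least 1 TPM on average, 9.27% for protein-coding genes and 36.1% for the 72 antisense genes of that level. Members had to reach 1 TPM in each library, which leaves out antisense genes that were low in 1 of them, so the share is a description. The median fold between the libraries was 1.34 for the members and 1.31 for protein-coding genes at 1 TPM in both.

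Higher in replicate 1 was Rab26os, at chr17:24528248-24528744 on the plus strand, with 15.56 TPM in replicate 1 and 2.84 TPM in replicate 2, a difference of 5.48-fold. Its record encloses the small nucleolar RNA gene Snord60, which held 78.0 expected counts in replicate 1 and 11 in replicate 2 at an effective length of 0, while Rab26os held 282 and 41. The 2 rows thus moved together, and how reads of fragments from the small RNA were divided between them was not tested. The nearest coding gene to the record of Rab26os, Traf7, 310 bases away, had 11.76 and 17.37 TPM and was the higher in replicate 2. Between the most abundant transcripts the starts of Rab26os and Traf7 lay 9059 bases apart.
4930481A15Rik had 5.22 TPM in replicate 1 and 1.05 TPM in replicate 2, from 160 and 162 expected counts. Its transcript of 354 nucleotides held 82.3% of its level in replicate 1 and 22.3% in replicate 2, and the effective length of the gene was 355 and 1185 nucleotides. The difference in TPM came with this change of transcript assignment, while the counts scaled to library size (CPM) were 5.74 and 3.34.
Sp3os, Gm16104 and 2510046G10Rik were the other 3, at 2.25-fold, 2.18-fold and 2.33-fold.

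Higher in replicate 2 was 4930539J05Rik, with 1.55 TPM in replicate 1 and 4.83 TPM in replicate 2, a difference of 3.12-fold. 9330020H09Rik differed by 2.44-fold and Gm12764 by 2.33-fold. B930036N10Rik, with 4.83 TPM in replicate 1 and 10.74 TPM in replicate 2, rested on 1397 and 4598 expected counts, the largest counts among the 10. Gm20628 had 2.16 and 4.81 TPM. It faces the lincRNA gene Gm42743, which had 583 TPM in replicate 1 and 1531 TPM in replicate 2, and the part of that row in the value of Gm20628 was not tested.

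Effective lengths are given for the 10 members apart. Over all members, 8 of 16 with an effective length below 700 nucleotides were higher in replicate 1 and 7 in replicate 2. Of the 30 longer ones, 12 were higher in replicate 1 and 18 in replicate 2. Each of these length classes held 5 of the members apart. The 5 members higher in replicate 1 had effective lengths of 210, 391, 210, 355 and 860 nucleotides in replicate 1 for Rab26os, Sp3os, Gm16104, 4930481A15Rik and 2510046G10Rik. Those higher in replicate 2 had 3352, 1955, 3023, 1214 and 425 nucleotides for B930036N10Rik, 9330020H09Rik, Gm20628, 4930539J05Rik and Gm12764. From the effective lengths, fragments averaged 193 nucleotides in replicate 1 and 245 nucleotides in replicate 2, and the part of fragment size in the differences was not tested. In CPM, with no division by length, 6 of the 10 members still differed over 2-fold. Of the members whose leading transcript had 1 exon, 12 of 15 were higher in replicate 2, against 13 of 31 with more exons, where 74.6% of protein-coding genes at 1 TPM in both libraries were higher in replicate 2.

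Of 39 sense genes 2 were apart by the same call, Car9 and Hist2h2aa2, and in 0 pairs were both the antisense and the sense gene apart. The share of sense genes apart was 5.13%. The call needs a mean of at least 1 TPM, which 4 sense genes below 0.1 TPM and 6 at 0.1 to 1 TPM did not reach. That share is therefore not comparable to the background of genes at that level. With only 2 sense genes apart, nothing is read from the 0 pairs. The median log2 difference of replicate 1 over replicate 2 was -0.13 for the members, -0.19 for their sense genes and -0.29 for protein-coding genes at 1 TPM in both. Across the 39 pairs Spearman's rho between the differences of antisense and sense gene was 0.21, as a description of pairs measured in the same 2 libraries.

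**Figure D4:**
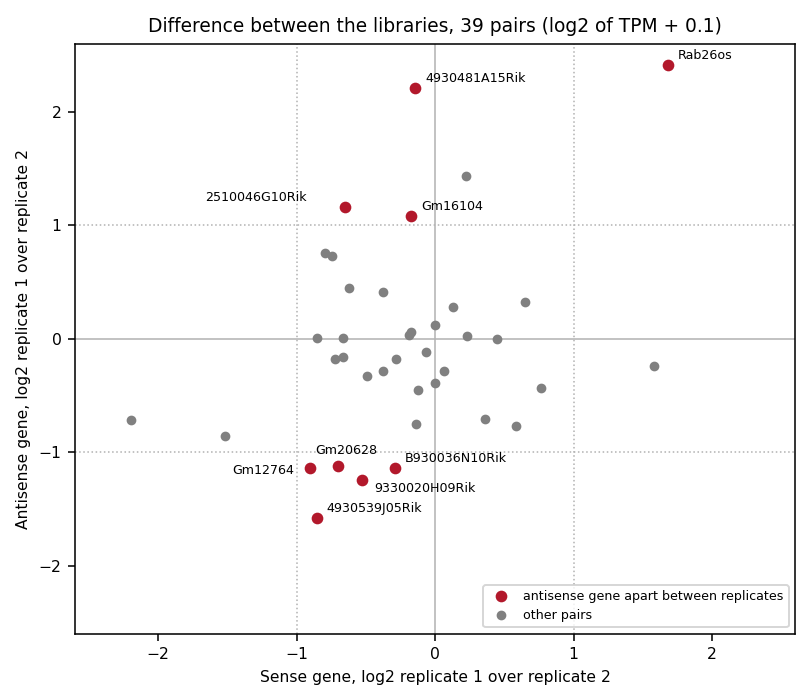
Log2 difference between replicate 1 and replicate 2 of the antisense gene (vertical) and of its sense gene (horizontal) for 39 pairs, with 0.1 TPM added to each value and dotted lines at a 2-fold difference. The named members, apart between the libraries, lie above or below the dotted lines of the antisense gene, and their sense genes lie between the vertical dotted lines with the exception of that of Rab26os.

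A list of named noncoding RNA genes was also looked up. It mixed antisense RNAs, such as Tsix, with host genes of small RNAs, such as Gas5 and Mir17hg. The classes found therefore say nothing about known antisense RNAs as a group. Of 20 names, 19 were in the tables, 5 of them had the class antisense and none was a member.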

How the data were processed

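The analysis started from the gene and transcript tables that the authors deposited for each of the 2 HSC libraries, with an expected count, a TPM, an FPKM, a posterior mean TPM, interval bounds and a posterior standard deviation per feature, and an isoform percent per transcript. Per the file headers these deposited scores (interval bounds and posterior standard deviations) belong to the expected count, TPM and FPKM estimates of 1 library. The sample text files deposited by the authors name mm10 and GENCODE M4. Aligner, counter and strand setting: not given in the sources used here. Gene names, classes and positions were taken from GENCODE M21 on GRCm38, and sequences from RefSeq on GRCm38.p6.

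The log2 ratios were computed here from the deposited TPM with 0.1 added. A pair was ordered when the intervals of antisense and sense gene did not overlap, in the same direction in both libraries. A gene was apart between the libraries when its mean was at least 1 TPM, the values differed over 2-fold and the intervals did not overlap. Bounds for genes without counts use 3 counts per library and cover counting error only. With 1 group of 2 libraries no test was made. The members, the gene lists and the genes named were chosen with earlier results of these data known. The sense partner is the opposite-strand gene of largest overlap, coding genes first. Genes named by rule are the 15 members of highest mean TPM, the 10 pairs with the highest and the 10 with the lowest log2 ratio, every member above its sense gene or apart between the libraries, the 3 members just inside and 3 antisense genes just outside the threshold, and members facing a listed gene. Other members and near coding genes were chosen for naming after their values had been seen.

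The alternatives tried were different level thresholds, posterior mean TPM, FPKM, CPM, TPM rescaled over coding and antisense genes, a minimum of 10 counts, other pseudocounts, other partners, other distances, each library alone, and scaling of rounded expected counts with TMM factors of edgeR 4.0.16 and size factors of DESeq2 1.42.0 in R 4.3.3. Python 3.11.15, numpy 2.4.6, pandas 2.3.3, scipy 1.17.1 and matplotlib 3.10.9 were used. The call rules were tried on simulated counts with counting error only and the same effective length of a gene in both libraries. That setting leaves out spread between animals and changes of transcript assignment, so it does not bear on them.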

Additional observations from a re-analysis of the deposited data

How the results depend on the processing

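No paired analysis was possible because the samples form 1 group. The number of antisense genes past the threshold, 46, depended on the scale: it was 84 at 0.5 TPM, 24 at 2 TPM, 107 by FPKM of at least 1, 112 by CPM and 149 with TPM rescaled over coding and antisense genes, and 65 to 81 with each library alone. The median level was 7.60 in FPKM, 14.5 in rescaled TPM, 2.51 TPM for members with at least 10 counts in both libraries and 2.37 to 2.59 TPM in each library alone. Pairs with the antisense gene above, 15, numbered 9 when a 2-fold difference in CPM was asked for and 6 with the nearest coding start as partner. The median log2 ratio was -2.29 to -1.62 in each library alone. A threshold of 1.5-fold put 18 members apart between the libraries in place of 10. Pairs with 5′ ends within 1000 bases, 11, numbered 7 within 500 bases, and 24 with the nearest coding start or 18 with starts of the most abundant transcripts where overlap was not needed. The settings with the nearest coding start and with transcript starts were chosen after seeing the data. The count of pairs with the antisense gene below lay between 20 and 24 with overlapping partners. The causes of these shifts were not tested. Depth limits the low members most, and 2 libraries give no measure of the spread between animals.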
